A study of Mus musculus with 2 samples.

Results

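The syndecans and glypicans are the main families of cell surface heparan sulfate proteoglycans. They were followed here as 10 genes chosen by symbol, Sdc1 to Sdc4 and Gpc1 to Gpc6, and all 10 were found among the 30385 entries of the table. The study measured transcript 5′ ends by 5′RNA-seq, in which polyA RNA is sequenced unfragmented so that reads gather near transcription starts. There was 1 library from MHC403/+ hearts, heterozygous for a missense mutation of the cardiac myosin heavy chain that causes hypertrophic cardiomyopathy, and 1 from wild-type (WT) hearts. Mice of both genotypes were 129/SvEv, aged 8 to 16 weeks, and per the labels were injected under the skin with CsA (cyclosporine A, a calcineurin inhibitor) at 15 mg/kg, 2 times a day for 2 weeks. Biological replicates were pooled into each library, from an unstated number of animals, so no difference here has a replicate check, no test across genotypes was possible, and a drug response that differs by genotype cannot be told apart from the genotype.

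Syndecans span the membrane and carry a short cytoplasmic tail that binds cytoskeletal and signalling proteins, while glypicans are tied to the outer leaflet of the membrane by a glycosylphosphatidylinositol (GPI) anchor. Both carry heparan sulfate, a sulfated sugar chain that holds growth factors, chemokines, lipases and matrix proteins at the cell surface. In heart muscle syndecan-4 is known from costameres and Z-discs, where it has been linked to mechanical signalling, and shed syndecan ectodomains are known from injured and failing hearts.

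The MHC403 library totalled 5468677 reads and the WT library 5481123, a difference of 0.227%. Values are RPM, reads scaled to a library total of 1e6, ratios are MHC403 over WT, and brackets hold exact Clopper-Pearson 95% intervals, which cover counting error only, not amplification, pooling or differences between animals. An entry is called measured if its higher library held 50 reads or more, and one with a ratio of at least 2 in either direction is called higher or lower. Of 9507 measured entries 26.1% were higher and 2.43% lower, and the median ratio was 1.48. Mitochondrially encoded entries took 13.7% of MHC403 reads and 29.5% of WT reads, and median-of-ratios scaling, which centres the bulk of entries, divides every ratio by 1.46. With that scaling 10.9% were higher and 7.59% lower. Cardiomyocyte transcripts such as Myh6 and Tnnt2 were present in both libraries, with 43863 RPM in MHC403 and 66256 RPM in WT over 8 markers.

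The promoters of the syndecans are shown first because the assay reads from transcription starts. RefSeq promoter sequence on GRCm38.p6 was at hand for 7 of the 10 genes: Sdc1, Sdc3, Sdc4, Gpc2, Gpc3, Gpc4 and Gpc5. The 250 bases before the annotated start are printed 5′ to 3′ for the 3 syndecans among them, on the strand of the gene. Capitals mark matches, on either strand, to the GC box GGGCGG, the CCAAT box CCAAT, and TATAA within 50 bases of the start. The counts were made on mm9, a different build, and positions were not converted; the span of the gene was the same in both for Sdc3 and Sdc4 and differed by 29 bases for Sdc1. For these 3, the end of the RefSeq promoter entry was found in a GENCODE transcript of the gene; for Gpc3 it was not, and the span of Gpc4 differed by 2011 bases, so their windows may not lie at the counted starts. Sdc1 is at chr12:8771146-8771395 (plus strand), Sdc3 at chr4:130792287-130792536 (plus strand) and Sdc4 at chr2:164443189-164443438 (minus strand).
Sdc1: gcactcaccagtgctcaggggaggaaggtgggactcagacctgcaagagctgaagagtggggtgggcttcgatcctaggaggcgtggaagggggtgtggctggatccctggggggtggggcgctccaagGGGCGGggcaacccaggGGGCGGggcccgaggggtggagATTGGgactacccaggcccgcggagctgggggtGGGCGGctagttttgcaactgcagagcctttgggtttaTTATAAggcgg
Sdc3: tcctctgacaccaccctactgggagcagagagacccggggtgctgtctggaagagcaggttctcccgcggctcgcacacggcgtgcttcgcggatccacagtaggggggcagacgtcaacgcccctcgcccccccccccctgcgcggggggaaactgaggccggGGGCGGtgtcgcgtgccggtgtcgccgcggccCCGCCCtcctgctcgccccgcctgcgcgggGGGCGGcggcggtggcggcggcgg
Sdc4: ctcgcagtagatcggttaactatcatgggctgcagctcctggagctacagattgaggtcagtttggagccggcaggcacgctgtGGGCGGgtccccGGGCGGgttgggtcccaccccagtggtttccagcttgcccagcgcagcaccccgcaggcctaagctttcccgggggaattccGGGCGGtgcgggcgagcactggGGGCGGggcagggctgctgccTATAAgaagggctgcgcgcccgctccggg

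A GC box was present in all 7 RefSeq windows, that of Gpc3 included, against 32.7% of the 32851 promoters in the RefSeq table, with 3 matches in Sdc1, 3 in Sdc3 and 4 in Sdc4. The CCAAT box occurred in Sdc1, Gpc2 and Gpc3, and in 33.8% of all promoters. TATAA, searched after the sequences had been read, lay 29 bases before the start in Sdc4 and at overlapping matches on both strands 11 and 10 bases before the start in Sdc1, and 6.36% of all promoters held it in that window. Sdc3 did not hold it. The AP-1 motif TGANTCA (6.75% of all promoters) and the E-box CACGTG (6.02%) were not among the letters of the 7 windows. The TEAD motif GGAATG (12.6%) occurred once, in Gpc4, and the TATA box TATAAA (12.4%) once, in Gpc5. Bases G and C made up between 51.2% (Gpc5) and 76.4% (Sdc3) of these windows, and 52.4% of the median promoter.

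The levels set Gpc1 apart from the rest. Gpc1 (glypican-1, chromosome 1, 94728263 to 94756773, plus strand), a glypican found in many adult tissues, had 2655 reads in MHC403 and 2625 in WT, or 485 RPM and 479 RPM. Per kilobase of counted window it stood at 1214 RPM in MHC403 and 1197 RPM in WT, and only 2.82% of measured entries in MHC403 and 2.31% in WT lay above it. It held 92.7% (91.7 to 93.7) of all glypican reads in MHC403 and 96.6% (95.8 to 97.2) in WT.

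**Figure D1:**
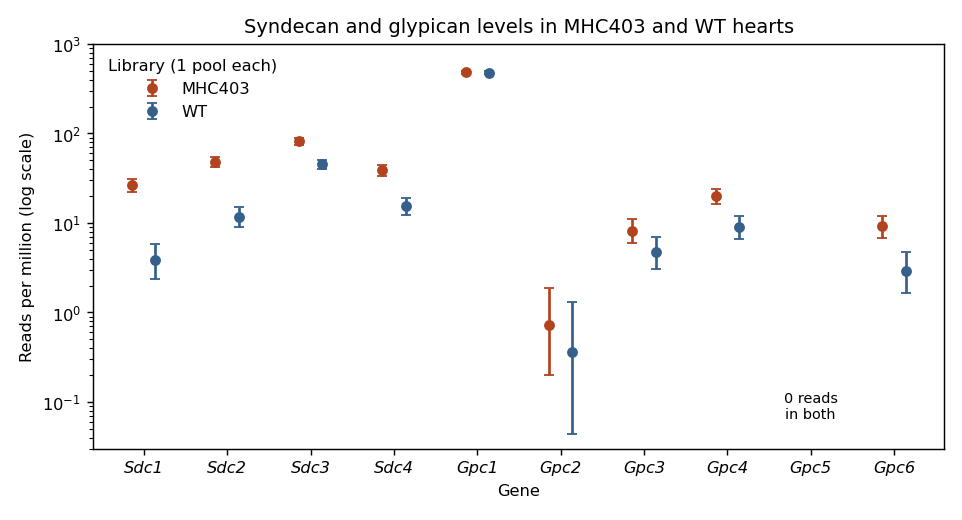
RPM (log axis) of the 10 genes, with 1 pooled library per genotype. Points are the measured levels and bars exact Poisson 95% counting intervals; Gpc1 stands at 485 and 479, the level of each of the 4 syndecans is above its WT level in MHC403, by less than 2-fold for Sdc3, and Gpc5 had no reads.

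The summed syndecan reads were past 2-fold under column totals and within 2-fold under median-of-ratios scaling. All 4 together had 1067 reads in MHC403 and 416 in WT, which is 195 RPM against 75.9 RPM and a ratio of 2.57 (2.29 to 2.89). Rescaled, the ratio was 1.76 (1.57 to 1.97). The intervals of the ratio lay above 1 for each of the 4, under column totals and under median-of-ratios scaling. How many of all measured entries had such an interval was not counted, and their median ratio under column totals was 1.48. The 3 syndecans past 2-fold under column totals were Sdc1, Sdc2 and Sdc4, and Sdc3 did not reach it. In whole hearts, more cells of a type and more RNA per cell cannot be told apart.

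Sdc1 (syndecan-1, chromosome 12, 8778202 to 8800493, plus strand), best known from epithelia and plasma cells, had 145 reads in MHC403 and 21 in WT, or 26.5 RPM and 3.83 RPM. It had the highest ratio of the 10 genes, 6.92 (4.36 to 11.5), and 2.15% of measured entries had a higher one. With median-of-ratios scaling the ratio was 4.73 (2.98 to 7.88). Plasma and lymphoid markers were near the limit of detection: 5 listed genes found in the table summed to 8 reads in MHC403 and 5 in WT, with Cd79b and Igj at 0 in both. The listed symbols Ighm and Jchain were not among the entries, so for plasma cells this rests mainly on Igj. The cell source of the Sdc1 reads was not tested. The next annotated start, of the unnamed transcript AK089512 on the other strand, lies 214 bases away and had 0 reads in both libraries.

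Sdc2 (syndecan-2, chromosome 15, 32850478 to 32964476, plus strand), the syndecan typical of fibroblasts and other mesenchymal cells, had 264 reads in MHC403 and 64 in WT, or 48.3 RPM and 11.7 RPM. Its ratio was 4.13 (3.14 to 5.52), exceeded by 5.42% of measured entries, and 2.83 (2.15 to 3.78) with median-of-ratios scaling. Sdc2 was thus past 2-fold under either scaling, and its window overlapped that of no other entry.

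Sdc4 (syndecan-4, chromosome 2, 164249747 to 164268688, minus strand), the focal adhesion syndecan that activates protein kinase C alpha, had 213 reads in MHC403 and 84 in WT, or 38.9 RPM and 15.3 RPM. Its ratio was 2.54 (1.97 to 3.31), and 14.9% of measured entries had a higher one. With median-of-ratios scaling it was 1.74 (1.34 to 2.27), under 2-fold.

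Sdc3 (syndecan-3, chromosome 4, 130348452 to 130382233, plus strand), known from the nervous system and from muscle progenitor cells, had 445 reads in MHC403 and 247 in WT, or 81.4 RPM and 45.1 RPM. The ratio of 1.81 (1.54 to 2.12) lay within 2-fold and was exceeded by 33.0% of measured entries. It was 1.24 (1.06 to 1.45) with median-of-ratios scaling. Sdc3 is the only one of the 10 with 2 annotated starts, and its reads were counted over both together.

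**Figure D2:**
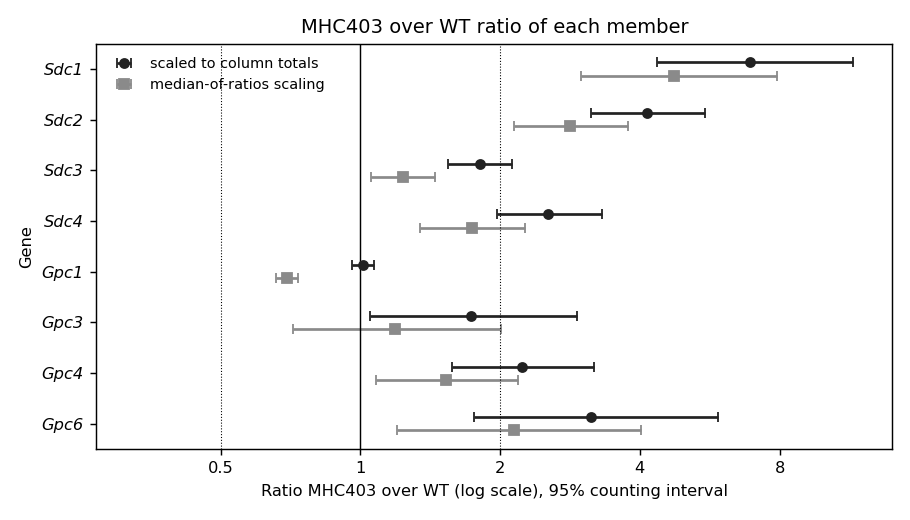
Ratio MHC403 over WT (log axis) of the 8 genes with more than 10 reads in a library, with 95% counting intervals, scaled to column totals (black circles) and by median-of-ratios (grey squares). Solid and dotted lines mark 1 and 2-fold either way; Sdc1, Sdc2 and Gpc6 stay past 2-fold with both scalings and Gpc1 is the lowest with both.

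With these unequal ratios the makeup of the syndecan reads differed between the libraries. Sdc1 made up 13.6% (11.6 to 15.8) of syndecan reads in MHC403 and 5.05% (3.15 to 7.61) in WT, and Sdc2 24.7% (22.2 to 27.4) against 15.4% (12.1 to 19.2). Sdc3 made up 41.7% (38.7 to 44.7) in MHC403 and 59.4% (54.5 to 64.1) in WT. For these 3 genes the intervals of the 2 libraries did not overlap. The share of Sdc4 was 19.96% (17.6 to 22.5) in MHC403 and 20.2% (16.4 to 24.4) in WT, with overlapping intervals. Such shares do not depend on how the libraries are scaled, though the windows of the genes differ in length.

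**Figure D3:**
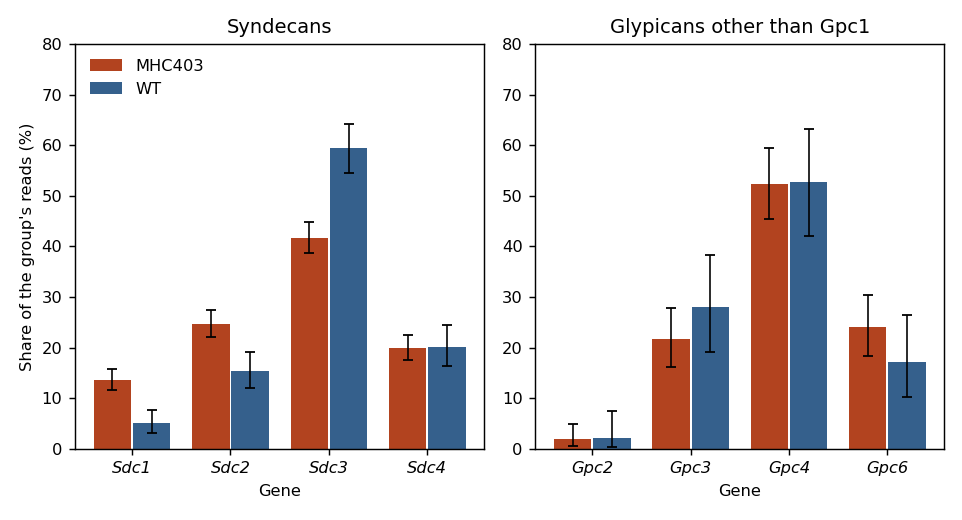
Share of syndecan reads (left) and of the reads of glypicans other than Gpc1 (right) taken by each gene, in percent, in the MHC403 and WT libraries. Bars start at 0 and carry exact 95% binomial intervals; Sdc1 and Sdc2 take more and Sdc3 less of the syndecan reads in MHC403, while the intervals of each glypican overlap.

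Per kilobase of counted window, the order of the levels also differed. In MHC403 the 4 syndecans lay close together, with Sdc2 at 121 (107 to 136), Sdc1 at 105 (88.4 to 123), Sdc3 at 102 (92.5 to 112) and Sdc4 at 97.4 (84.7 to 111) RPM per kilobase, and each neighbour's interval overlapped the next. In WT they were spread out, with Sdc3 at 56.3 (49.5 to 63.8), Sdc4 at 38.3 (30.6 to 47.4), Sdc2 at 29.2 (22.5 to 37.3) and Sdc1 at 15.1 (9.37 to 23.1) RPM per kilobase. Sdc3 lay above Sdc4 beyond counting error in WT, while Sdc4 and Sdc2, and Sdc2 and Sdc1, overlapped. Gpc4 followed the syndecans in MHC403, at 49.8 (40.9 to 60.1) RPM per kilobase, and lay between Sdc2 and Sdc1 in WT, at 22.3 (16.5 to 29.5), where its interval overlapped those of both. Gpc6 and Gpc3 came next and overlapped in both libraries, at 22.9 (16.97 to 30.1) and 20.6 (15.01 to 27.5) RPM per kilobase in MHC403 and 7.30 (4.17 to 11.9) and 11.9 (7.75 to 17.4) in WT. The value of Sdc3 is an average over the windows of its 2 starts. The windows held 253 bases for Sdc1, 400 each for Sdc2 and Sdc4, and 800 for Sdc3. Reads gather near starts and need not grow with window length, so the closeness of the syndecans in MHC403 depends on this division. In undivided RPM Sdc3 was the highest of the 4 in both libraries, at 81.4 in MHC403 and 45.1 in WT. Sdc1 was the lowest, at 26.5 and 3.83, and in MHC403 Sdc2 had 48.3 and Sdc4 38.9.

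Among the glypicans, Gpc1 was level under column totals, and the sum of the other members was past 2-fold there but not with median-of-ratios scaling. The ratio of Gpc1 was 1.01 (0.960 to 1.07), the most precise of the 10 for its depth, and 79.8% of measured entries had a higher one. With median-of-ratios scaling it was 0.694 (0.657 to 0.732), so the direction for Gpc1 depends on the scaling, and under neither did it reach 2-fold. The 6 glypicans together had 2863 reads in MHC403 and 2718 in WT, a ratio of 1.06 (1.001 to 1.11), which is carried by Gpc1. Without Gpc1 the other glypicans had 208 reads in MHC403 and 93 in WT, a ratio of 2.24 (1.75 to 2.89), and 1.53 (1.195 to 1.98) with median-of-ratios scaling.

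Gpc4 (glypican-4, chromosome X, 49406195 to 49518100, minus strand), first described from kidney, had 109 reads in MHC403 and 49 in WT, or 19.9 RPM and 8.94 RPM. Its ratio of 2.23 (1.58 to 3.19) became 1.53 (1.08 to 2.18) with median-of-ratios scaling. Gpc3 (glypican-3, chromosome X, 49625604 to 49967151, minus strand), whose loss causes an overgrowth syndrome in humans, is its neighbour on the X chromosome. It had 45 reads in MHC403 and 26 in WT, or 8.23 RPM and 4.74 RPM, under the minimum of 50. The ratio of Gpc3 was 1.73 (1.05 to 2.93), and 1.19 (0.717 to 2.00) with median-of-ratios scaling, an interval that includes 1.

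Gpc6 (glypican-6, chromosome 14, 117324537 to 118378751, plus strand), mutated in a human skeletal dysplasia, had 50 reads in MHC403 and 16 in WT, or 9.14 RPM and 2.92 RPM, exactly at the minimum. Its ratio was 3.13 (1.75 to 5.89), and 2.14 (1.2001 to 4.03) with median-of-ratios scaling. Gpc5 (chromosome 14, 115491437 to 116924414, plus strand), its neighbour, had 0 reads in both libraries, which allows up to 0.549 RPM in MHC403 and 0.547 RPM in WT (a one-sided limit of 3 reads each). Gpc2 (cerebroglycan, chromosome 5, 138714888 to 138721165, minus strand), a glypican of developing neurons, had 4 reads in MHC403 and 2 in WT, too few for a direction.

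Of the 10 genes, 7 passed the minimum of 50 reads and 3 (Gpc2, Gpc3 and Gpc5) did not. Under column totals 5 were higher (Sdc1, Sdc2, Sdc4, Gpc4 and Gpc6), against 26.1% of all measured entries, and 0 lower, against 2.43%; Sdc3 and Gpc1 lay within 2-fold. Sdc1, Gpc4 and Gpc6 passed the minimum through their MHC403 reads alone, so they could enter only with more reads in MHC403 than in WT. With a minimum on the mean of both libraries, which does not favour either, 6 passed and 4 were higher, against 23.1% of all entries. With median-of-ratios scaling 3 were higher (Sdc1, Sdc2 and Gpc6), against 10.9%, and 0 lower, against 7.59%.

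The count of members called, and the share of all entries called in the same way, were read together for each alternative. With TMM scaling 3 were higher, against 10.9% of entries, and 0 lower, against 7.55%. With totals that leave out mitochondrial entries 4 were higher, against 16.1%, and 0 lower, against 4.21%. A minimum of 20 reads left 5 higher, against 27.5%, and 0 lower, against 2.9%; a minimum of 200 reads left Sdc2 and Sdc4, against 24.7%, and 0 lower, against 2.5%. With 1 read in each library as the sole minimum 6 were higher, against 29.7%, and 0 lower, against 4.57%, the sixth being Gpc2 with its 4 reads and 2 reads. At a fold of 1.5 Sdc3 joined for 6 higher, against 49.1%, and 0 were lower, against 5.62%, and at a fold of 3 there were 3 higher, against 10.3%, and 0 lower, against 0.778%. Leaving out overlapping entries kept 5 higher, against 26.5%, and 0 lower, against 2.4%. By the mean-based minimum 0 were lower, against 2.08%.

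**Figure D4:**
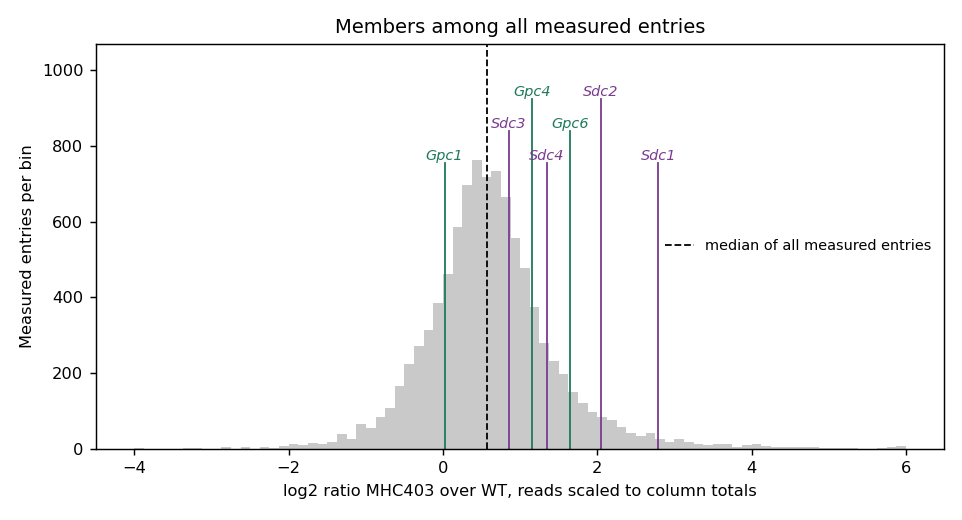
Number of measured entries per bin of the log2 ratio MHC403 over WT, with the 7 measured members as vertical lines (syndecans purple, glypicans green) and values beyond the axis gathered in its end bins. The median of all entries is 0.57 (dashed); Gpc1, at 0.02, lies left of it and the other 6 lie right of it, up to Sdc1 at 2.79.

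The members were next set against each other, which removes the scaling. Among the 7 measured genes there are 21 pairs, and the ratio of their ratios, with an exact conditional 95% interval not widened for the number of pairs, lay above 1 in 13. Gpc1 had a lower ratio than each of the other 6, with intervals above 1 throughout. Of these, Sdc1, Gpc4 and Gpc6 entered the pairs through their MHC403 reads alone, which favours a high ratio, while Sdc2, Sdc3 and Sdc4 did not. The count of 13 includes pairs with such genes. The ratio of Sdc1 was 6.82 times (4.28 to 11.4) that of Gpc1, the ratio of Sdc2 4.08 times (3.07 to 5.48), and that of Sdc3, the nearest, 1.78 times (1.51 to 2.11). Within the syndecans, Sdc1 exceeded Sdc3 by 3.83 times (2.34 to 6.54) and Sdc4 by 2.72 times (1.58 to 4.83), and Sdc2 exceeded Sdc4 by 1.63 times (1.103 to 2.40). Sdc4 exceeded Sdc3 by 1.41 times (1.04 to 1.92). Sdc1 and Sdc2 differed by 1.67 times (0.962 to 3.01), an interval that includes 1, and intervals also included 1 for Gpc4 against Sdc3, Sdc4 and Gpc6, and for Gpc6 against each syndecan.

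The authors' deposited table gives a p-value per gene, by an unstated test on the reads, which compares the 2 libraries and not the conditions. In the authors' deposited table it was 2.67e-30 for Sdc2, 2.71e-24 for Sdc1 and 0.620 for Gpc1. The authors' deposited table also gives a whole-number start-site score, above 0 in 34.7% of entries with at least 20 reads in both libraries. In the authors' deposited table the score was 22 for Sdc1, 7 for Sdc2, 3 for Gpc4 and 0 for the other 7 genes. Among scored entries 20.5% were at or above Sdc1 in this score, and the median was 8; how the score is built is unstated, so the values are listed without a reading.

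Markers of fibroblasts and macrophages had higher sums in MHC403, as the syndecans did, and their counts stand against 26.1% higher and 2.43% lower among all measured entries. Fibroblast markers (8 genes, among them Pdgfra, Dcn and Col1a1) summed to 2458 RPM in MHC403 and 456 RPM in WT, and 5 of 8 were higher and none lower. In MHC403 the collagens Col1a1 and Col3a1 held most of the sum, 4914 and 4088 of 13440 reads. In WT most of it was Dcn, with 1666 of 2501 reads, and Dcn was 1.79-fold. Pdgfra was 2.25-fold (276 reads against 123), and Tcf21 1.79-fold (68 reads against 38). Of the 8 fibroblast markers, 2 were measured through MHC403 alone. Macrophage markers summed to 294 RPM in MHC403 and 96.1 RPM in WT, with 6 of 6 measured higher, 4 of them measured through MHC403 alone. Of that sum Lyz2, whose window overlaps that of Lyz1, held 692 of 1610 reads in MHC403 and 227 of 527 in WT. Smooth muscle and pericyte markers summed to 470 RPM in MHC403 and 319 RPM in WT, with 3 of 7 higher. Endothelial markers were 573 RPM in MHC403 and 450 RPM in WT, with 0 of 8 higher and 0 lower, and of 8 cardiomyocyte markers 2 were lower and 6 within 2-fold. With median-of-ratios scaling, under which 10.9% of entries were higher and 7.59% lower, 4 fibroblast, 3 macrophage and 2 smooth muscle and pericyte markers were higher, and 4 cardiomyocyte markers and 1 endothelial marker were lower. Mesothelial markers, none of them measured, summed to 24.9 RPM in MHC403 and 10.9 RPM in WT, Schwann and neural markers to 51.4 RPM and 14.2 RPM, of which Ncam1 had 216 and 25 reads, and adipocyte markers to 0.914 RPM and 0.730 RPM, with Adipoq and Lep at 0 in both. No marker was at 0 in both libraries in the lists for fibroblasts, macrophages, endothelium or smooth muscle. The part of these cells in the ratios of the syndecans and glypicans was not tested.

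The genes that build, edit, cut or bind heparan sulfate proteoglycans were counted in 8 lists. Of 121 genes 120 were in the table, 74 were measured, 43 of these (58.1%) were higher, 0 lower and 31 in between, against 26.1% and 2.43% of all measured entries. With median-of-ratios scaling 26 were higher and 3 lower, against 10.9% and 7.59% of all measured entries. Of the 74, 24 were measured through MHC403 alone. With a minimum on the mean of both libraries 38 of 67 were higher, against 23.1% of all entries. The shares of all measured entries under each scaling also stand beside the counts of each list below. The lists were drawn up with earlier results of these data known, so these counts describe the genes and are no test of the pathway.

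**Figure D5:**
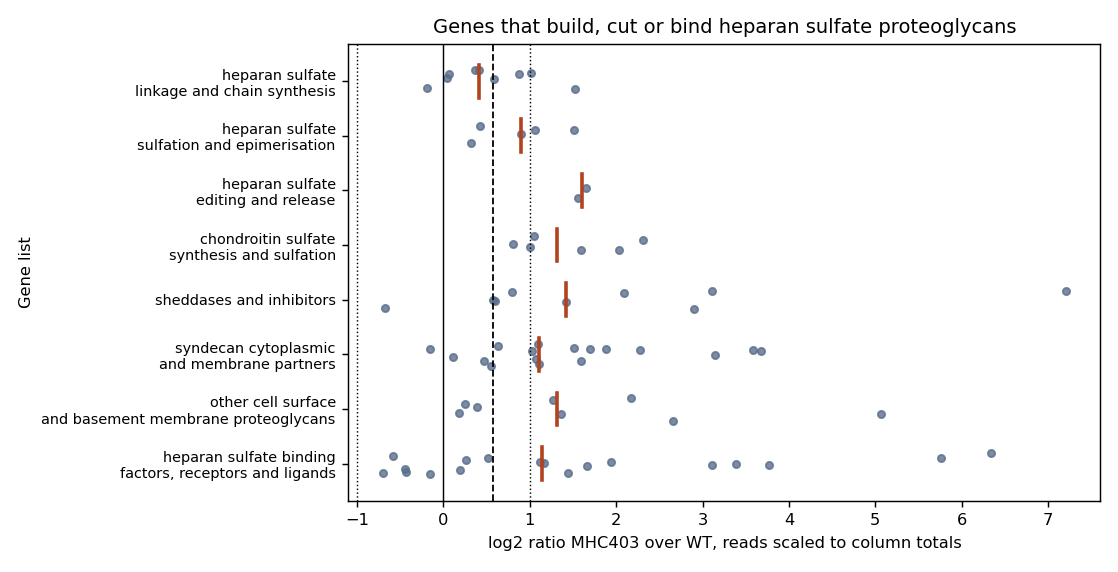
Log2 ratio MHC403 over WT of each measured gene (points) in 8 gene lists, with the list median in red, a dashed line at the median of all entries (0.57), a solid line at 0 and dotted lines at 2-fold. Chain synthesis has the lowest median, 0.42, and editing and release, with 2 measured genes, the highest, 1.61.

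Heparan sulfate chain synthesis stayed near the bulk of entries, with 2 of 9 measured genes higher, none lower and a median log2 ratio of 0.42. The 2 were the copolymerase Ext1, 2.88-fold (2.14 to 3.91), with 175 reads in MHC403 and 61 in WT, and B4galt7, which adds the first galactose of the linker, 2.02-fold (1.46 to 2.83). Ext2, the partner of Ext1, was not chosen by the naming rule; it was 1.33-fold (1.05 to 1.69). The initiating xylosyltransferase Xylt2 was 1.83-fold (1.24 to 2.75) and the chain-starting Extl3 1.28-fold (1.09 to 1.52). All 9 lay within 2-fold once scaled by median-of-ratios.

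Of the enzymes that sulfate or epimerise the chain, 2 of 5 measured were higher and none lower, with a median log2 ratio of 0.89. None was higher with median-of-ratios scaling. Hs6st1, the 6-O-sulfotransferase, was 2.86-fold (2.26 to 3.65), with 274 reads in MHC403 and 96 in WT, and Hs2st1, the 2-O-sulfotransferase, 2.09-fold (1.39 to 3.18). Ndst1, which replaces N-acetyl by N-sulfate groups, was 1.86-fold (1.495 to 2.32). Both extracellular sulfatases that remove 6-O-sulfates were higher: Sulf2 had 739 reads in MHC403 and 251 in WT, 2.95-fold (2.55 to 3.42), and Sulf1 119 and 38 reads, 3.14-fold (2.16 to 4.65). They stayed past 2-fold with median-of-ratios scaling, at 2.02 and 2.15. Hs2st1 and Sulf1 passed the minimum through MHC403 alone. Heparanase, Hpse, which cuts the chains, had 5 reads in MHC403 and 1 in WT, and Notum, on the same list, had none in either.

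Chondroitin sulfate, which some syndecans also carry, is built by other enzymes, and 5 of 6 measured were higher and none lower. Their median log2 ratio was 1.32, and 3 were higher with median-of-ratios scaling. Chpf and Chpf2, chondroitin polymerising factors, were 4.96-fold (3.92 to 6.34) and 4.08-fold (3.16 to 5.32), the polymerase Chsy1 3.01-fold (1.95 to 4.75), and the dermatan 4-O-sulfotransferase Chst14 2.07-fold (1.33 to 3.29), or 1.42-fold with median-of-ratios scaling. Reads in MHC403 alone brought 4 of the 6 past the minimum.

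Among proteases known to shed cell surface proteins and their inhibitors, 5 of 9 measured were higher and none lower. With median-of-ratios scaling 4 were higher and 1 lower. The median log2 ratio was 1.42, and 3 of the 9 were measured through MHC403 alone, Mmp14 and Timp1 among them. Mmp2 had 1205 reads in MHC403 and 162 in WT, 7.46-fold (6.32 to 8.84), and Mmp14, its membrane-bound activator, 396 and 46 reads, 8.63-fold (6.35 to 11.98). Adamts1 was 4.27-fold (3.16 to 5.85), and the inhibitor Timp1 had 886 reads in MHC403 and 6 in WT. The sheddases Adam10 and Adam17, outside the naming rule, were within 2-fold at 1.74 (1.33 to 2.29) and 1.51 (1.03 to 2.24). Timp4, chosen after its values were seen, was 1.60-fold (1.25 to 2.06) lower, and past 2-fold lower with median-of-ratios scaling.

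Of the membrane and cytoplasmic partners of syndecans, 12 of 17 measured were higher and none lower, with a median log2 ratio of 1.11. With median-of-ratios scaling 7 were higher. Of the 17, 5 passed the minimum through MHC403 alone, Itgb3 among them. The fibronectin receptor subunit Itga5 had 2159 reads in MHC403 and 181 in WT, 11.96-fold (10.3 to 13.99), Itgb3 64 and 5 reads, 12.8-fold (5.22 to 40.9), and Itgb1 3.01-fold (2.84 to 3.21). Actn1, an actin crosslinker that binds the tail of syndecan-4, was 8.86-fold (7.04 to 11.3). Sdcbp (syntenin-1), the adaptor that binds the tails of all syndecans, was 2.03-fold (1.70 to 2.44), and Prkca, the kinase that syndecan-4 activates, was level at 0.899 (0.606 to 1.33); these 2 were named after their values were seen.

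Other cell surface and basement membrane proteoglycans numbered 8, all measured, of which 5 were higher and 0 lower, with a median log2 ratio of 1.31. With median-of-ratios scaling 3 were higher. Cd44 and Col18a1 were measured through MHC403 alone. The hyaluronan receptor Cd44, which can carry heparan sulfate, had 569 reads in MHC403 and 17 in WT. Col18a1, the collagen that carries heparan sulfate, was 6.32-fold (4.16 to 9.97), Cspg4 (NG2) 4.51-fold (3.50 to 5.88), and Hspg2, perlecan of the basement membrane, 2.57-fold (2.42 to 2.73), with 4023 reads in MHC403 and 1569 in WT, or 1.76-fold with median-of-ratios scaling. The remaining 3, agrin (Agrn), betaglycan (Tgfbr3) and neuropilin-1 (Nrp1), named after their values were seen, were within 2-fold, as was Gpc1.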

How the data were processed

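Per the labels' protocols, intact polyA RNA from mouse hearts was sequenced at 5′ ends without fragmentation, after size selection and linear amplification, and replicates were pooled, 1 library per genotype. TopHat 1.0.14 and mm9 are named in the submitters' processing notes; counter, strand use and treatment of multiply matched reads: not given in the sources used. Per the file headers, the authors deposited whole-number counts per gene over windows near annotated starts, RPM (scaled to the total over all entries, checked to 4.94e-06), a fold MHC403 over WT, a p-value and a start-site score.

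The counts were rescaled to the 2 column totals, and ratios and exact intervals computed with scipy 1.17.1 in Python 3.11.15, tested on simulated data; TMM factors came from edgeR 4.0.16 in R 4.3.3. For ratios, 0 reads were replaced by a floor of 3 counts per library. Intervals and floors cover counting error only. With 1 library per genotype no test was made. Positions are 1-based on mm9. None of the 10 windows overlapped another entry's. Promoters are from RefSeq GRCm38.p6.

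Members and lists (heparan sulfate synthesis, sulfation, editing; chondroitin sulfate; sheddases; partners; other proteoglycans; ligands; markers of 9 cell types) were chosen with earlier results of these data known; 1 marker gene is not reported here. Named were all 10 members and, per list, up to 4 measured genes whose interval, excluding 1, had its nearer bound farthest from 1. Alternatives were other scalings, read minimums of 20, 200 and 1, folds of 1.5 and 3, and leaving out overlapping entries.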

Additional observations from a re-analysis of the deposited data

How the results depend on the processing

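The members counted as higher (5 in all, with 0 lower) were 3 with TMM or median-of-ratios scaling, 3 at a fold of 3 and 2 with a minimum of 200 reads. No other alternative moved this count by more than 1.5 times, and none made a member lower; the mean-based minimum was chosen after seeing the data. The list genes counted as higher (43) were 26 with median-of-ratios and TMM scaling, against 10.9% of all entries with either. They were 25 of 39 with a minimum of 200 reads, against 24.7%, and 25 at a fold of 3, against 10.3%. Those counted as lower (0) were 3 with median-of-ratios (against 7.59%) and TMM scaling (against 7.55%). They were 1 of 89 with a minimum of 20 reads, against 2.9%, and 2 at a fold of 1.5, against 5.62%. With at least 1 read in each library 1 of 101 was lower, against 4.57%. The log2 ratio of summed syndecan reads (1.36) was 0.81 with median-of-ratios, 0.82 with TMM and 1.07 without mitochondrial entries in the totals. That of glypicans (0.08) was -0.47, -0.47 and -0.22 in the same order, so its sign depends on the scaling. For glypicans without Gpc1 (1.16) it was 0.62 with both median-of-ratios and TMM scaling. These shifts follow from the scalings, which lower each log2 ratio by one constant. Of values for single genes and single lists under the alternatives, 137 stayed within their counting interval or 1.5 times and 50 did not. No paired analysis was possible because each genotype has 1 pooled library. Depth limits Gpc2, Gpc3, Gpc5 and Gpc6, with at most 50 reads each.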

Other observations

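Genes listed as heparan sulfate binding growth factors, receptors and matrix proteins moved unevenly, and whether each one binds it was not tested. Of 34 listed genes 18 were measured, 10 were higher and 0 lower, at a median log2 ratio of 1.14, and with median-of-ratios scaling 7 were higher and 2 lower. The largest ratios belonged to matrix proteins that syndecans and integrins bind. Tnc (tenascin C) had 243 reads in MHC403 and 0 in WT, at least 81.2-fold higher against a floor of 3 counts in the WT library, while the exact two-sided interval of its ratio begins at 65.5. Thbs1 (thrombospondin 1) was 54.1-fold (30.8 to 105) higher with 648 reads in MHC403 and 12 in WT. Fn1 (fibronectin), whose window overlaps 2 other entries, was 13.7-fold (11.5 to 16.3) higher. The heparin-binding growth factor Hbegf had 333 reads in MHC403 and 32 in WT, 10.4-fold (7.25 to 15.5) higher. Of the 18 measured, 6 passed the minimum through MHC403 alone, Tnc, Thbs1 and Hbegf among them. Such genes could enter only with more reads in MHC403 than in WT.

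Other ligands, named after their values were seen, were lower within 2-fold. Lpl (lipoprotein lipase, which is held on the vessel wall by heparan sulfate and GPIHBP1) had 8685 reads in MHC403 and 14185 in WT, 1.63-fold (1.59 to 1.67) lower. Vegfa had 984 reads in MHC403 and 1342 in WT, 1.36-fold (1.25 to 1.48) lower, and Igf2 was 1.35-fold (1.13 to 1.62) lower. Lpl and Fgf13 were the 2 genes of this list past 2-fold lower with median-of-ratios scaling, and the window of Lpl overlaps that of an unnamed transcript. The fibroblast growth factor receptor Fgfr1, also chosen after its values were seen, had 326 reads in MHC403 and 85 in WT, 3.84-fold (3.02 to 4.94) higher, in a window that overlaps an unnamed transcript, while the ligand Fgf2 had 6 reads in MHC403 and 1 in WT and Fgf1 345 and 303 reads.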
